A study of Mus musculus with 8 samples.

Results

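Genes of macrophages and of antigen presentation were compared between trigeminal ganglia of daDREAM transgenic mice and of control mice. The set holds 36 genes listed by symbol, among them surface markers of macrophages, the C1q chains, major histocompatibility complex (MHC) class II genes, Fc receptors, and Toll-like receptors with their partner proteins. The list names genes by symbol, with no threshold on measured values, and was made with earlier results of these data known. For 35 of the 36, out of 18193 genes in all, the array carried a probe set annotated with that symbol alone. H2-DMb1 was covered only by probe sets shared with H2-DMb2 and is described by those. Where a gene had several probe sets, the one with the highest mean over the 8 arrays represented it.

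Sensory neurons that serve the face have their cell bodies in the trigeminal ganglion. RNA of 4 control and 4 transgenic samples was hybridised to Affymetrix Mouse Genome 430 2.0 arrays, 1 sample per array. All animals are labelled as adult males of a C57B/6XCBA background, so both groups share that mixed strain origin, and the transgenic samples carry the tag tg16 in their titles. daDREAM is a mutant form of DREAM, the product of Kcnip3, a calcium-binding protein that represses transcription, made to stay active. The promoter that drives the transgene, the number of founder lines behind the tag, and whether a sample holds 1 animal or a pool are not stated in the labels. The p-values therefore measure the spread between these samples.

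Macrophages live among the neurons and satellite cells of sensory ganglia, where they clear debris and respond to injury. They depend on the receptor CSF1R, sense microbial and damage products through Toll-like receptors, and release complement C1q. MHC class II molecules present peptides to CD4+ T cells after the invariant chain CD74 has guided them to endosomes and the protease cathepsin S has cut it away. Some Toll-like receptors work only with small secreted partner proteins. LY96 (MD-2) sits on TLR4 and holds lipopolysaccharide, while its relative LY86 (MD-1, the product of Ly86) sits on CD180, a Toll-like receptor homologue that has no signalling domain and that tunes responses through TLR4.

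Values are RMA log2 expression values, on which a step of 1 is a doubling of signal. Differences are daDREAM minus control, with means ± SD of n = 4 arrays per group. The arrays had medians from 7.09 to 7.13. Between 28.0% and 30.3% of probe sets on each array read below a log2 value of 6, which is used here as a mark for dim signal. Sensory neuron genes read from 8.88 to 14.39 in control means. Kcnip3 read 10.23 ± 0.15 and 10.26 ± 0.07 (adjusted p = 0.880, limma), and whether its probe set covers the transgene is not known here. Some arrays stood apart from the others. Xist, an RNA of female cells, read 10.20, 11.72 and 11.51 on control replicates 3 and 4 and daDREAM replicate 4, against 6.10 to 6.49 on the others, although all animals are labelled male. The Y chromosome gene Eif2s3y read 8.40, 7.16 and 4.46 on these arrays in that order, against 8.74 to 9.04 on the others. These arrays were thus not alike, since Eif2s3y was dim on daDREAM replicate 4 only. What the samples held was not tested. The pituitary hormone gene Gh was highest on control replicate 3 and daDREAM replicates 3 and 4 (11.15, 12.50 and 13.43), and muscle Acta1 on control replicates 1 and 3 (9.20 and 9.40).

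Of the 35 measured genes, 1 passed the test, with limma and an adjusted p under 0.05 over all genes. It was Ly86, which fell. Over all 18193 genes the background was 2.00% called in either direction. Of these genes 1.02% were called as lower and 0.984% as higher, so a count of 1 in 35 is close to that background. The median difference over the 35 genes was 0.01, beside 0.00 over all genes. Of the 35, 18 values were above 0 and 17 below. At an unadjusted p under 0.05 there were 7 of 35 (20%), 6 of them lower, where all genes gave 18.2% (9.29% lower).

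The regulatory sequence before 2 of the genes at the centre of the result, Ly86 and its receptor partner Cd180, is shown because the transgene encodes a DNA-binding repressor. Both genes lie on chromosome 13. The RefSeq promoter windows (build GRCm38.p6, 250 bases before to 50 after the gene's start, gene strand) are chr13:37345095-37345394, plus strand, for Ly86 and chr13:102693297-102693596, plus strand, for the Cd180 start shown. Capitals mark GTCA on either strand (GTCA or TGAC), the core letters of the element that DREAM is known to bind.
Ly86: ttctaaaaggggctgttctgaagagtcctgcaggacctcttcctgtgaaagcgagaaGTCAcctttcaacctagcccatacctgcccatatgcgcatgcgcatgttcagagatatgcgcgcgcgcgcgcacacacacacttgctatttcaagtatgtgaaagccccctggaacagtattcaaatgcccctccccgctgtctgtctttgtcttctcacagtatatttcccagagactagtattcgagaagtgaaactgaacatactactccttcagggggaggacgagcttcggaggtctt
Cd180: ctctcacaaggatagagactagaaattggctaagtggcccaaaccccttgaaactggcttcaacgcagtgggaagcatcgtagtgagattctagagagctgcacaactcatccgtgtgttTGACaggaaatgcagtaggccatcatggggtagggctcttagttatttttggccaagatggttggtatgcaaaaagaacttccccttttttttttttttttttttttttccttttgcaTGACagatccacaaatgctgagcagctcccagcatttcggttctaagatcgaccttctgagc
The Ly86 window held 1 such match and the Cd180 window 2. GTCA on either strand occurred in 85.2% of the 32851 promoter windows, so its presence sets neither gene apart, and a match is not a binding site.

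Ly86 carried the one difference that passed. On control replicates 1 to 4 it read 11.01, 11.10, 10.60 and 10.90. On daDREAM replicates 1 to 4 it read 9.12, 9.54, 9.33 and 9.45. Every transgenic array was below every control array, with a gap of more than 1 log2 unit between the nearest ones. The means were 10.90 ± 0.22 and 9.36 ± 0.18, a difference of -1.54 (SE 0.12, 95% interval -1.81 to -1.28, limma adjusted p = 2.98e-05), which is a 2.91-fold lower signal. By its p-value Ly86 stood at place 25 among the 18193 genes. The gene had 1 probe set, so no second probe set could be set beside it. How the mixed strain background was divided over the samples is not stated, so strain origin and transgene cannot be told apart.

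Without the 3 arrays with female signal Ly86 differed by -1.72, without those with the most Gh by -1.67 and without those with muscle signal by -1.64, and it passed in each case (limma adjusted p = 8.77e-04, 0.00167 and 4.58e-04).

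The receptor that LY86 serves gave no signal to compare. Cd180 read 5.03, 4.72, 4.92 and 4.92 on control and 4.84, 4.89, 4.93 and 5.04 on daDREAM arrays, all below 6. Its difference was 0.03 (95% interval -0.15 to 0.21), but a dim probe set can miss a change. Tlr4, the receptor for lipopolysaccharide, read 7.15, 7.18, 7.30 and 7.05 on control and 6.96, 6.83, 7.02 and 7.27 on daDREAM arrays. The groups overlapped, and the difference was -0.15 (95% interval -0.37 to 0.07, limma adjusted p = 0.434). Its other 3 probe sets read -0.08, -0.05 and 0.03, and those at -0.05 and 0.03 were dim in both groups. Cd14, which hands lipopolysaccharide to TLR4, read 7.37 to 7.77 on control and 7.12 to 7.43 on daDREAM arrays (difference -0.24, SE 0.10, limma adjusted p = 0.249). Tlr2, a receptor for bacterial lipoproteins, differed by 0.01 (95% interval -0.20 to 0.22). Tlr7, an endosomal receptor for single-stranded RNA, differed by -0.13, with other probe sets at -0.23 and -0.04, whose means were below 6.

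The change in Ly86 was larger than that of Tlr4, Tlr2, Tlr7 and Cd14 on the same arrays. Ly86 minus the other gene was taken within each array, and these differences of log2 values were compared between the groups. The shift was -1.39 against Tlr4, -1.55 against Tlr2, -1.42 against Tlr7 and -1.30 against Cd14. Against Cd180 it was -1.57, which restates the fall of Ly86 beside a dim probe set and compares no change in Cd180. All 5 pairs gave p = 0.0286 in a two-sided exact permutation test over 70 assignments of arrays, also after Benjamini-Hochberg adjustment over the 5 pairs. This is the smallest p that 4 against 4 arrays can give. The comparison speaks of unequal change and not of levels. Ly86 was already known to have passed, so these p-values follow from its own fall. They are no separate support for it.

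**Figure D1:**
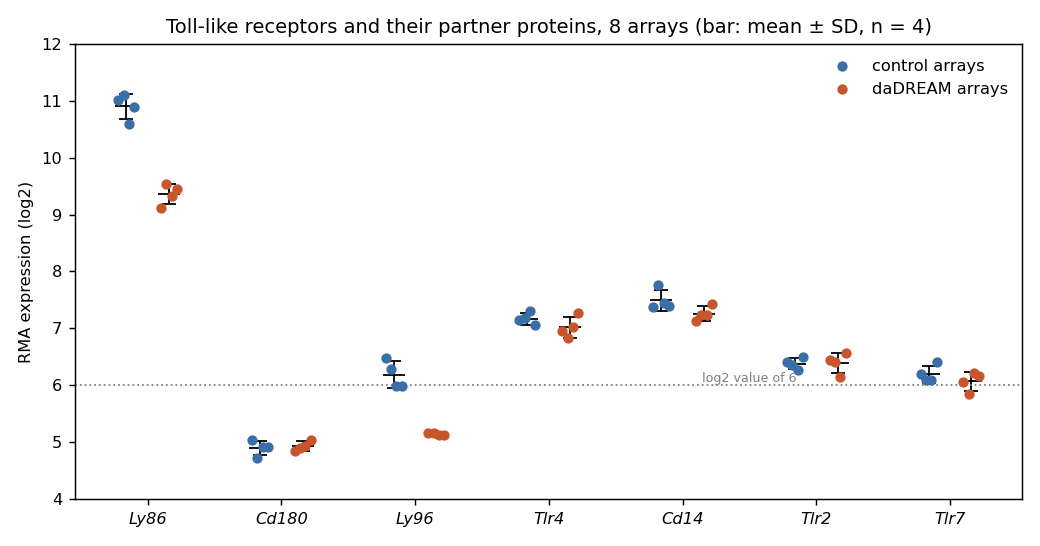
Log2 RMA expression of Ly86, Cd180, Ly96, Tlr4, Cd14, Tlr2 and Tlr7 on 4 control arrays (blue) and 4 daDREAM arrays (orange). Points are arrays, bars are mean ± SD, and the dotted line is a log2 value of 6. The groups of Ly86 (10.60 to 11.10 against 9.12 to 9.54) and of Ly96 (5.99 to 6.47 against 5.12 to 5.16) do not overlap, and those of the other genes do.

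A wider list of Toll-like receptor pathway genes held the relative of Ly86 as its only member past the test. Ly96, the MD-2 partner of TLR4, read 6.47, 6.28, 5.99 and 5.99 on control and 5.16, 5.16, 5.12 and 5.13 on daDREAM arrays. Every transgenic value lay below every control value. The difference was -1.04 (SE 0.11, limma adjusted p = 2.42e-04), a 2.06-fold lower signal. All transgenic values and those of control replicates 3 and 4 lie below 6, in the dim range, and the gene had 1 probe set. The size of the difference is therefore uncertain. Under the unequal-variance test per gene the adjusted p of Ly96 was 0.177, while that of Ly86 was 0.0283.

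Of the 20 measured genes on this wider list, 1 was lower, 0 were higher and 19 did not pass, with a median of -0.06. Over all genes 18.2% had an unadjusted p under 0.05. On this list, besides Ly96, 6 genes had one, and they were chosen for mention after their values were seen. Those with lower values were Tlr5, the receptor for flagellin (-0.32), the inhibitor of NF-kappaB Nfkbia (-0.37), the kinase-like inhibitor Irak3 (-0.33) and the interferon regulator Irf7 (-0.32). Those with higher values were Tlr6, which pairs with TLR2 (0.27), and the adaptor Myd88 (0.25). Another probe set of Nfkbia did pass over probe sets (-0.47, limma adjusted p = 0.0213).

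**Figure D2:**
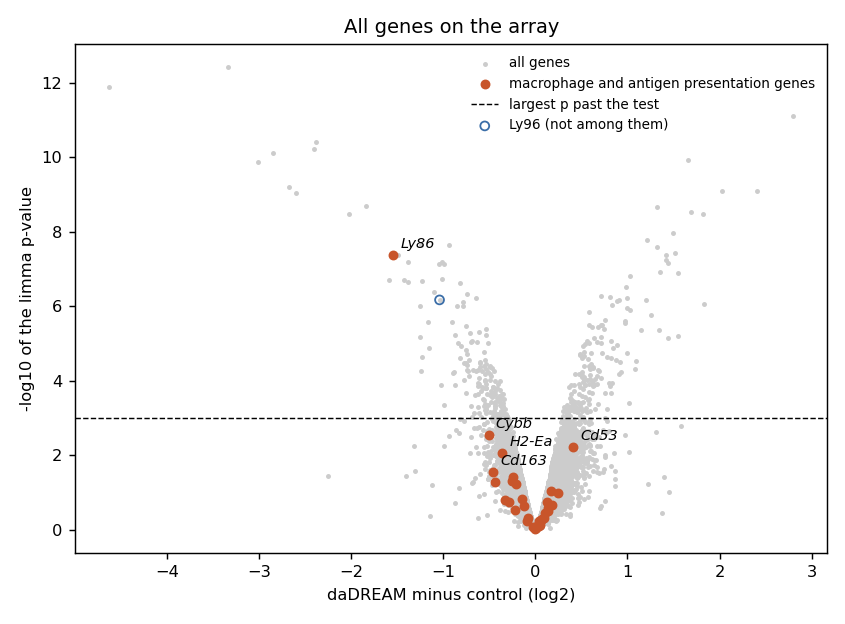
Difference (daDREAM minus control, log2, horizontal) against -log10 of the limma p-value (vertical) for all 18193 genes in grey, the 35 macrophage and antigen presentation genes in orange and Ly96 as an open circle. The dashed line is the largest p that passed. Ly86 at -1.54 is the only orange point above it, and Cybb at -0.51 is the nearest one below.

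The genes beside Ly86 on chromosome 13 did not share its change. In RefSeq order the 3 measured genes before it were Fars2, Nrn1 and F13a1 and the 3 after it Rreb1, Ssr1 and Cage1. None of the 6 passed limma over all genes. Fars2, a mitochondrial tRNA synthetase, was the one with groups that did not overlap (0.34, adjusted p = 0.0769). Rreb1, a zinc finger transcription factor, differed by 0.38 (adjusted p = 0.123) and the other 4 by -0.08 to 0.03. F13a1, the coagulation factor XIII chain that macrophages also make, read 7.88 ± 0.21 and 7.85 ± 0.29.

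The other 34 genes had differences from -0.51 to 0.41, and 0 of them passed limma; 6 had an unadjusted p under 0.05. With an unequal-variance test per gene Ly86 was likewise the 1 gene of the 35 to pass. The 95% intervals of all 34 lay within 1 log2 unit of 0, between -0.89 and 0.68, and those of 24 lay within 0.5. None reached the upper end of the Ly86 interval at -1.28. Groups did not overlap in 2 of the 35, Ly86 and H2-Ea, where 10.7% of all genes did so and 5.73% with the transgenic arrays lower. The spread between arrays of a group was larger for these genes than for most, with a median SD of 0.20 beside 0.13 over all genes. The 16 genes with more than 1 probe set had 31 further probe sets. Of those, 0 passed limma over probe sets, where 2.74% of all probe sets did, and their differences ran from -0.57 to 0.21 (smallest adjusted p = 0.104).

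**Figure D3:**
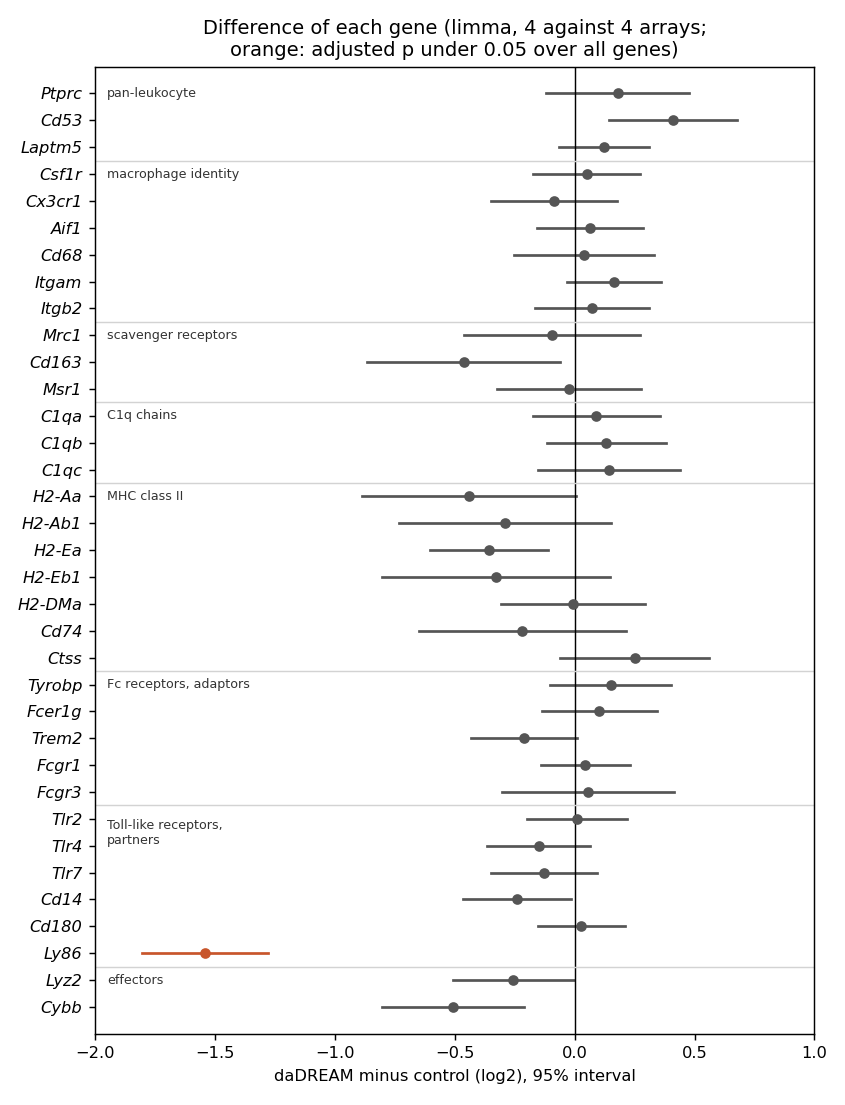
Difference between daDREAM and control arrays (log2, horizontal) with its 95% limma interval for each of the 35 genes, grouped by role. The interval of Ly86, in orange, ends at -1.28, and none of the other 34 intervals goes below -0.89.

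Genes carried by all leukocytes gave no call. Cd53, a tetraspanin of leukocyte membranes, had the largest positive value among the 35 genes. It read 7.06, 7.28, 6.84 and 6.85 on control and 7.40, 7.34, 7.23 and 7.70 on daDREAM arrays. The groups met only through control replicate 2 and daDREAM replicate 3. The difference was 0.41 (SE 0.12, limma adjusted p = 0.122), and without the arrays with female signal it was 0.15. Ptprc, the phosphatase CD45, differed by 0.18 (95% interval -0.12 to 0.48) and Laptm5, a lysosomal membrane protein of blood cells, by 0.12 (-0.06 to 0.31). For Laptm5 the other 4 probe sets read from -0.18 to 0.11, and the one at 0.11 was dim in both groups.

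Genes that mark macrophage identity were level between the groups as far as the intervals show. Csf1r, the receptor on which macrophages depend, read 10.59, 10.63, 10.62 and 10.74 on control arrays and 10.49, 10.65 and 10.64 on daDREAM replicates 1 to 3, with daDREAM replicate 4 the highest of the 8 (difference 0.05, 95% interval -0.17 to 0.27). Its 2 other probe sets read 0.19 and 0.06. Cx3cr1, the fractalkine receptor, differed by -0.08 with an interval of -0.35 to 0.18. The actin-binding protein gene Aif1, known as IBA1, differed by 0.06, and the lysosomal marker Cd68 by 0.04 (95% intervals -0.16 to 0.28 and -0.25 to 0.33). The integrin chains Itgam and Itgb2, which form the complement receptor CR3, differed by 0.16 and 0.07, and Itgam was dim in both groups (5.47 and 5.64). Of these 6 genes Itgam had the smallest p (adjusted p = 0.348). A fall of the size seen in Ly86 lay outside the interval of each of these 6 genes, of which Itgam was dim. Whether the number of macrophages differed between the groups was not tested. In bulk ganglia fewer macrophages and less RNA per macrophage cannot be told apart.

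All 3 scavenger receptors had values below 0, and 0 passed limma, with 1 at an unadjusted p under 0.05. Cd163, which takes up haemoglobin bound to haptoglobin, read 7.01, 6.59, 6.77 and 6.65 on control and 6.63, 5.88, 5.95 and 6.71 on daDREAM arrays. Only daDREAM replicates 2 and 3 were below all controls, and the other 2 transgenic arrays lay in the control range. The difference was -0.46 (SE 0.18, limma adjusted p = 0.223). The mannose receptor Mrc1 was also lowest on daDREAM replicates 2 and 3 (8.05 and 8.00) and highest on daDREAM replicate 4 (8.85), with a difference of -0.10. Msr1, scavenger receptor A, differed by -0.02, while another of its probe sets read -0.35 (adjusted p = 0.104 over probe sets).

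The 3 chains of C1q, the recognition protein of the classical complement pathway, moved side by side over the arrays. C1qa read 8.76, 9.39, 9.13 and 8.88 on control and 9.15, 9.04, 9.19 and 9.14 on daDREAM arrays. Control replicate 2 was the highest of 8 for all 3 chains, and the transgenic arrays lay close together. Differences were 0.09 for C1qa, 0.13 for C1qb and 0.14 for C1qc (smallest adjusted p = 0.550, for C1qb). The SD of C1qa was 0.28 among control and 0.06 among daDREAM arrays, of C1qb 0.25 and 0.06, and of C1qc 0.32 and 0.09. The difference in spread was not tested.

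Of other complement genes, C2, the protease that cleaves C3 and C5 within the convertase, fell as the 1 of 8 measured genes past the test. It read 7.94, 8.23, 7.88 and 8.00 on control and 7.61, 7.58, 7.46 and 7.65 on daDREAM arrays. The groups did not overlap. The difference was -0.44 (SE 0.09, limma adjusted p = 0.0262), and 2 further probe sets read -0.36 and -0.39 without passing (adjusted p = 0.240 and 0.183 over probe sets). The call was lost without control replicate 1 or 2 or daDREAM replicate 1, 2 or 3, with limma adjusted p of 0.0525, 0.0503, 0.0623, 0.0844 and 0.0963, where the differences were -0.46, -0.36, -0.45, -0.44 and -0.40. It was also lost without the arrays with female, Gh or muscle signal (limma adjusted p = 0.0738, 0.201 and 0.0512), at differences of -0.54, -0.46 and -0.54. The mean of the gene's probe sets gave -0.40 (adjusted p = 0.116). The proteases C1ra and C1s1, which act with C1q, differed by -0.52 and -0.62 without passing (adjusted p = 0.142 and 0.145), and were chosen after their values were seen. Of the 8 values 6 were below 0 (49.5% over all genes), with a median of -0.22.

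MHC class II genes had 6 of 7 values below 0, beside 49.5% over all genes. Of the 7, 0 passed the test, and the median was -0.29. H2-Aa, the alpha chain of I-A, read 10.50, 10.88, 10.14 and 10.17 on control and 10.51, 10.03, 9.55 and 9.84 on daDREAM arrays. The groups overlapped, and daDREAM replicate 1 was as high as control replicate 1. The difference was -0.44 (SE 0.20, limma adjusted p = 0.282). Its other probe sets read -0.41, -0.57 and -0.165, the last of them dim. None of these passed limma over probe sets (smallest adjusted p = 0.225). H2-Ab1, its beta chain, differed by -0.29, H2-Eb1, the beta chain of I-E, by -0.33, and Cd74, the invariant chain, by -0.22 (adjusted p = 0.463, 0.440 and 0.575). Control replicate 2 was the highest of 8 for all 4 genes. Without control replicate 2, named here after its values were seen, the differences were -0.29 for H2-Aa, -0.10 for H2-Ab1, -0.14 for H2-Eb1 and -0.02 for Cd74. On the other side, daDREAM replicate 1 was the highest transgenic array for the same 4 genes (10.51, 9.41, 9.50 and 10.01). Differences without that array are not given here.

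Class II genes share a promoter layout, the S, X and Y boxes, on which the activator CIITA acts. The promoter windows of H2-Aa (chr17:34287774-34288073, minus strand) and H2-Eb1 (chr17:34305617-34305916, plus strand), from RefSeq and build GRCm38.p6, are shown because these genes ran together over the arrays. Capitals mark CCAAT on either strand (CCAAT or ATTGG), the letters at the centre of the Y box.
H2-Aa: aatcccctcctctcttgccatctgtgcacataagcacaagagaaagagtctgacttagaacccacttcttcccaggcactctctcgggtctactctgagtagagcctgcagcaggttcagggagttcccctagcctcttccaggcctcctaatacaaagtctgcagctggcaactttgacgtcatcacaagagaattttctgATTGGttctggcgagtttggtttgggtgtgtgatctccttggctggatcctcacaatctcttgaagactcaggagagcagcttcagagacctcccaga
H2-Eb1: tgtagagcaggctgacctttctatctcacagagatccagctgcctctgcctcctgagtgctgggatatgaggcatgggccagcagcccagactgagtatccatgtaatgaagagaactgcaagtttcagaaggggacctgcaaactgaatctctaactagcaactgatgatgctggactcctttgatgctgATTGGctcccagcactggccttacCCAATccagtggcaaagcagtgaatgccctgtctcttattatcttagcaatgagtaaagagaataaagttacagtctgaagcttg
The H2-Aa window held 1 match and the H2-Eb1 window 2, and 37.4% of all windows held at least 1.

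H2-Ea, the alpha chain of I-E, did not run with the others. It read 8.92, 8.75, 8.83 and 9.19 on control and 8.32, 8.56, 8.73 and 8.65 on daDREAM arrays. The groups did not overlap, though the gap between 8.75 and 8.73 was small. The difference was -0.36 (SE 0.11, limma adjusted p = 0.144). Its 2 other probe sets were dim in both groups and differed by -0.10 and -0.14. As background, C57BL strains lack a working H2-Ea gene and CBA mice have one. The labels do not say how the C57B/6XCBA background was divided over the samples. Strain origin and transgene therefore cannot be told apart for this gene, and the same limit holds for Ly86, Ly96 and all other genes.

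The genes that load and trim class II peptides gave no call. H2-DMa, part of the peptide editor H2-DM, differed by -0.01 (95% interval -0.31 to 0.29). The 2 probe sets shared by H2-DMb1 and H2-DMb2 each differed by -0.05 (adjusted p = 0.886 and 0.878 over probe sets). Ctss, cathepsin S, differed by 0.25, with control replicate 4 as the lowest array (9.68, others 10.17 to 10.54). Among 14 further class II genes 0 passed limma, with 5 at an unadjusted p under 0.05 (18.2% over all genes) and a median of -0.08. Ctsl, the protease cathepsin L, had the smallest p there, with groups that did not overlap (13.28 ± 0.08 and 13.02 ± 0.06, adjusted p = 0.0928). A far dimmer Ctsl probe set read 6.51, 6.93, 6.29 and 6.36 on control and 5.04, 5.15, 4.95 and 5.01 on daDREAM arrays. It passed over probe sets (-1.49, limma adjusted p = 3.37e-05), with the transgenic values in the dim range. Rfxank, a subunit of the RFX factor that binds class II promoters, differed by -0.08 at its brightest probe set, while another rose (7.20 ± 0.09 to 7.78 ± 0.05, difference 0.58, limma adjusted p = 9.33e-04 over probe sets) and the remaining one read 0.01. Ciita, the class II activator, differed by -0.07 at a level near 6 in both groups (6.03 and 5.96).

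Class I presentation genes, which display peptides from inside the cell, had 12 of 14 values below 0 with 0 past limma, 5 at an unadjusted p under 0.05 and a median of -0.10. The shares over all genes were 49.5% below 0 and 18.2% at such a p. Of the 14, Tap1, a subunit of the peptide transporter, had the smallest p. It read 7.95, 8.09, 8.09 and 7.95 on control and 7.80, 7.77, 7.75 and 7.71 on daDREAM arrays, without overlap (difference -0.26, SE 0.07, limma adjusted p = 0.0849). Its 3 other probe sets read 0.12 (control mean 7.16), 0.02 (4.40) and 0.12 (4.165), so all but the first were dim and can miss a change. H2-D1, a classical class I heavy chain, differed by -0.04 at its brightest probe set. Another of its probe sets read 8.29, 7.67, 7.70 and 8.39 on control and 6.24, 6.67, 5.37 and 5.69 on daDREAM arrays, without overlap, and passed over probe sets (-2.02, limma adjusted p = 0.00101). The other 7 H2-D1 probe sets read from -0.43 to 0.07, and 0 passed. Class I heavy chain genes are near-identical and vary between strains, so this signal cannot be assigned to 1 gene with certainty. Over all these pathway lists, 4 of 85 further probe sets passed, 3 lower and 1 higher, where 2.74% of all probe sets did. Ctsl, Rfxank, H2-D1 and Nfkbia are named for those probe sets, after their values were seen. With the unequal-variance test 0 genes of these pathway lists passed.

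**Figure D4:**
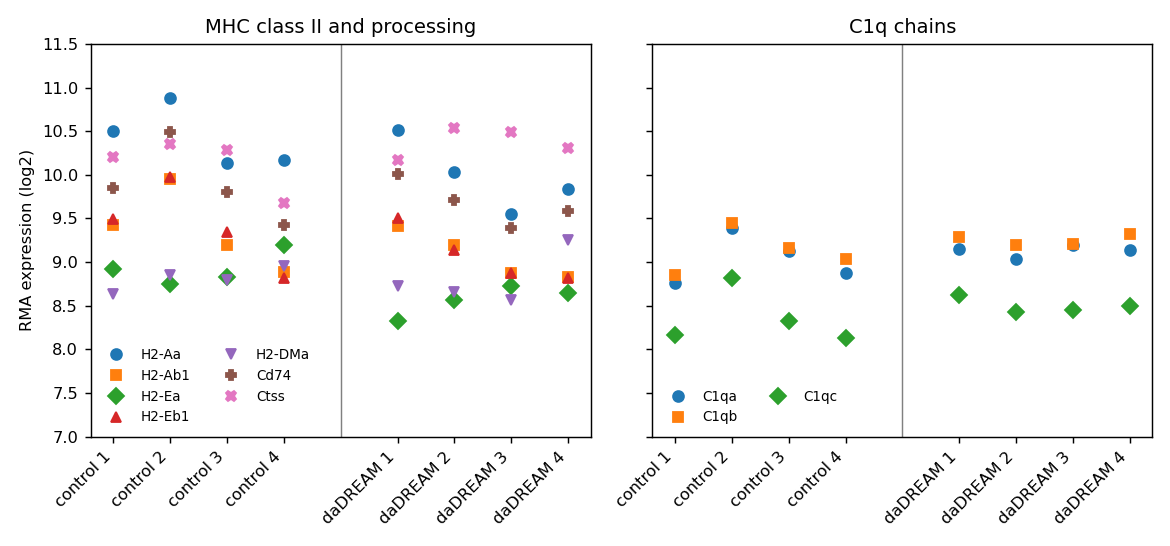
Log2 RMA expression of 7 class II and processing genes (left) and of the 3 C1q chains (right) on each array, control replicates 1 to 4 and then daDREAM replicates 1 to 4. H2-Aa, H2-Ab1, H2-Eb1, Cd74 and the C1q chains are highest on control replicate 2, and H2-Ea does not follow them.

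Fc receptors and the adaptors they signal through gave no call. Tyrobp (DAP12) and Fcer1g, adaptors that carry activation motifs, differed by 0.15 and 0.10 (95% intervals -0.10 to 0.40 and -0.14 to 0.34). Trem2, a lipid-sensing receptor that signals through TYROBP, had the smallest p of the 5. It read 7.71 to 7.92 on control and 7.42 to 7.81 on daDREAM arrays (difference -0.21, SE 0.10, limma adjusted p = 0.298), and its other probe set read 0.02. Fcgr1, the high-affinity receptor for IgG, differed by 0.05 and Fcgr3, a low-affinity one, by 0.06.

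Cybb, the gp91phox subunit of the phagocyte oxidase, came nearest to the threshold after Ly86. It read 7.57, 7.73, 7.52 and 7.78 on control and 7.12, 6.83, 7.06 and 7.56 on daDREAM arrays. Transgenic replicates 1 to 3 were below every control array, and replicate 4 lay within the control range. The difference was -0.51 (SE 0.13, limma adjusted p = 0.0876). Its other probe sets were both dim and read -0.38 (adjusted p = 0.129 over probe sets) and 0.00. The gene passed without daDREAM replicate 4 (-0.65, adjusted p = 0.00918) and without the 3 arrays with female signal (-0.65, adjusted p = 0.0404), of which that array is 1. Lyz2, the lysozyme of macrophages, differed by -0.26 (SE 0.12, adjusted p = 0.273) and was highest on control replicate 2 (10.17, others 9.42 to 9.73).

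A further 30 macrophage genes held 1 past the test. Gpr34, a lysophosphatidylserine receptor of microglia and macrophages, rose. It read 5.61, 5.35, 5.60 and 5.39 on control and 6.02, 5.99, 5.82 and 5.82 on daDREAM arrays, without overlap. The difference was 0.43 (SE 0.09, limma adjusted p = 0.0307) in the dim range. The call was lost without control replicate 2 or 4 or daDREAM replicate 1, 2 or 3, with limma adjusted p of 0.0724, 0.0640, 0.0951, 0.113 and 0.0583, where the differences were 0.38, 0.39, 0.39, 0.40 and 0.46. It was also lost without the arrays with female or Gh signal (limma adjusted p = 0.116 and 0.123), at differences of 0.46 and 0.56. The median of these 30 was -0.04. Together with the other pathway lists, 3 of 86 genes passed, 1 higher and 2 lower, beside the 2.00% of all genes.

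Over the arrays the 35 genes rose and fell partly together within a group. Control replicate 2 held the highest of the 8 values for 13 of the 35 genes and daDREAM replicate 4 for 10. Control replicate 2 was the highest array for 4 of 7 class II genes and all 3 C1q chains, with class II genes a median of 0.68 above their own means over the 8 arrays. On daDREAM replicate 4, leukocyte genes were a median of 0.30 above theirs, while class II genes had a median of -0.19. Ly86 was also highest on control replicate 2 (11.10), but all of its control values lay above all of its daDREAM values.

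**Figure D5:**
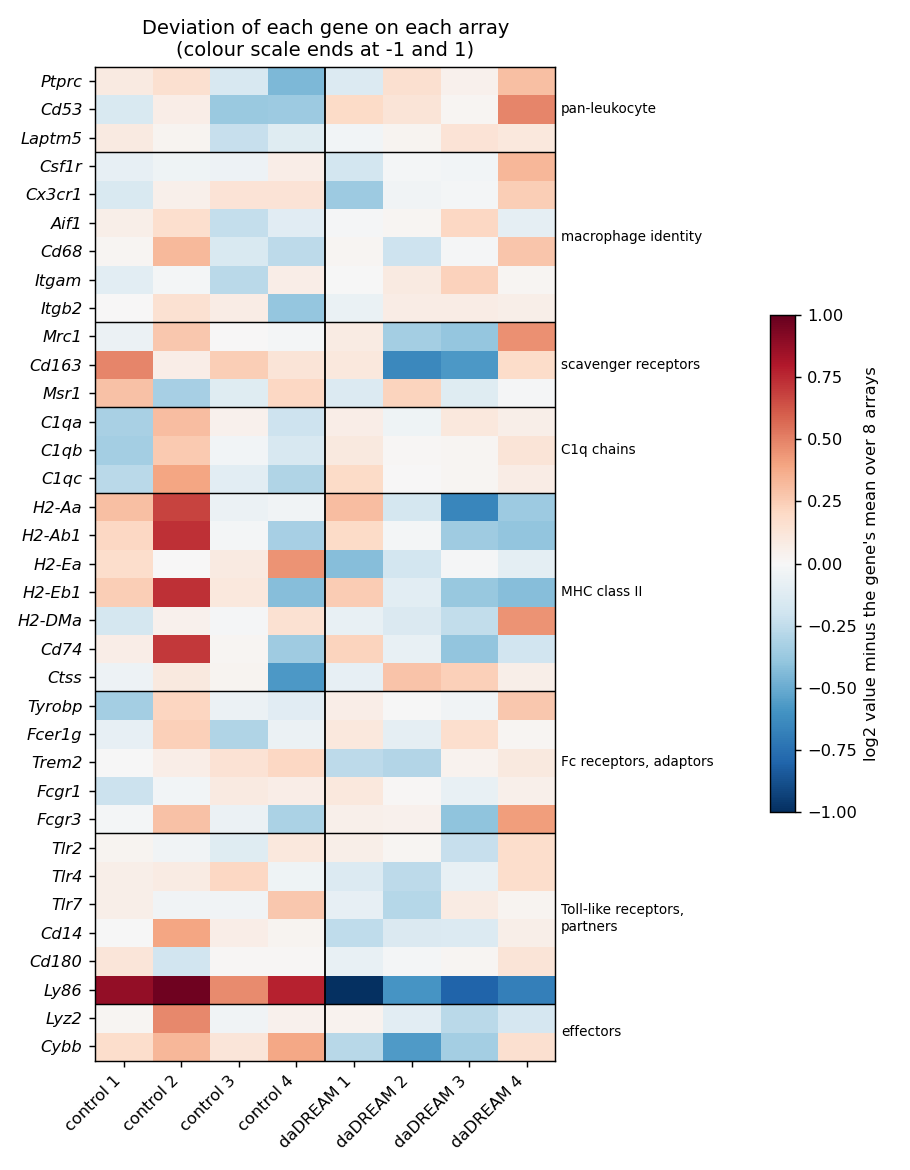
Each cell is a gene's log2 value on an array minus its mean over the 8 arrays (red above, blue below, colours end at -1 and 1), for the 35 genes in rows and the arrays in columns, control on the left. Ly86 is the one row that is red on all control and blue on all daDREAM arrays with deep colour, and 4 of the 7 class II rows (H2-Aa, H2-Ab1, H2-Eb1 and Cd74) are reddest on control replicate 2.

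Markers of other cells moved as well, and their part in these results was not tested. The counts of called markers stand beside 2.00% called over all genes. The summed signal of 11 lymphocyte markers on the linear scale ran from 1777 to 1910 on control and from 1258 to 1406 on daDREAM arrays. Ighm, the immunoglobulin M heavy chain, was the 1 of 11 past the test (-1.24). Without Ighm the sum of the other 10 ran from 1007 to 1155 on control and from 956 to 1056 on daDREAM arrays, and the groups overlapped. Of the 11 values 10 were below 0 (49.5% over all genes), with a median of -0.12. Besides Ighm, the T cell gene Cd3e had an unadjusted p under 0.05 and groups without overlap (-0.25, limma adjusted p = 0.158). The B cell genes Cd79a, Cd79b and Ms4a1 differed by 0.04, -0.01 and -0.06, with Ms4a1 below 6 in both groups. Ly86 and Cd180 are also genes of B cells.

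The summed signal of 9 granulocyte markers ran from 857 to 1109 and from 1163 to 1423, with 3 of 9 higher (S100a8, S100a9 and Lcn2). S100a8 and S100a9 had the largest differences (1.03 and 1.08), and no sum without them was taken. Of the 9 values 6 were above 0 and 3 below (Elane -0.22, Mpo -0.105 and Csf3r -0.07). The summed signal of 8 central nervous system markers ran from 5701 to 11442 and from 11129 to 15276. One call was made among them, for Aqp4, the water channel of astrocytes, which was higher. All 8 values were above 0, with a median of 0.685, and 5 had an unadjusted p under 0.05 (18.2% over all genes). Groups did not overlap in 2 of the 8, Aqp4 and Gfap (10.7% over all genes). Gfap had the largest difference of the 8 without passing (1.585, limma adjusted p = 0.0660). Cldn5, the claudin of vessels, rose as 1 of 8 endothelial and fibroblast markers. Of the 8 values 4 were above 0 and 4 below. The other vessel genes Pecam1, Cdh5 and Kdr differed by 0.27, -0.09 and -0.04. Dcn and Lum each differed by -0.50, Dcn without overlap, and Col1a1 and Col3a1 by 0.38 and 0.07. The 7 dendritic cell markers gave 0 calls with limma and 1 at an unadjusted p under 0.05, and their sums overlapped (925 to 980 and 869 to 952). Of the 7 values 6 were below 0 (49.5% over all genes), with a median of -0.08. Itgax had the smallest p of them, with groups that did not overlap (-0.27, limma adjusted p = 0.107).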

How the data were processed

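The 8 samples, 4 control and 4 daDREAM, were grouped by their titles. The authors deposited log2 expression values per probe set, for which the submitters' processing notes name RMA and affy; no version or probe set definition is given in the sources used here. RMA corrects background, quantile-normalizes over arrays and summarises probes, so each difference is relative to the array's average gene. Of 45101 probe sets, 64 Affymetrix controls were left out; platform annotation gave 34945 a single symbol, 932 several and 9160 none, which left 18193 genes. RefSeq order (GRCm38.p6) was used for neighbours of 18032 genes, and 25 of the 36 genes had a RefSeq promoter window that was searched. That search left out chromosome 18, where Cd14, Cd74 and Csf1r lie, while the shares over all windows had no such filter.

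The test was limma 3.58.1 (R 4.3.3), two-sided, by lmFit and eBayes with group as the only term, adjusted by Benjamini-Hochberg over all genes, or over 45037 probe sets where stated. The code was tested on simulated data. Single within-array differences had an exact permutation test. Genes and lists were chosen with earlier results of these data known. Described in full are genes past the test, genes whose groups do not overlap and the smallest p of each role. Of the pathway lists, genes past the test or else the smallest p are named, and others (Tlr5, Tlr6, Nfkbia, Irak3, Irf7, Myd88, C1ra, C1s1, Ciita, Rfxank, H2-D1) were chosen after their values were seen. The number of arrays limits the precision. Alternatives covered the replicate block, normalization, filters, probe set choice, variance prior, unequal-variance test, array weights, thresholds and leaving out arrays. Leaving out arrays with female, Gh or muscle signal was chosen after seeing the data. Plots used Python 3.11.15 with matplotlib 3.10.9.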

Additional observations from a re-analysis of the deposited data

Results flagged for a closer look

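Among 76 groups of 4 arrays, from 35 genes and Ly96, C2 and Gpr34, 2 held an array far from the other 3, where chance flags about 1 in 20. Lyz2 read 10.17 on control replicate 2, with the other controls at 9.65 to 9.73, and several class II genes and the C1q chains were highest on the same array. Itgb2 read 6.60 on daDREAM replicate 1, with the others at 6.72 to 6.74.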

How the results depend on the processing

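Ly86 passed under all 21 alternatives that gave it a value, at -1.72 to -1.46 (largest adjusted p = 0.0283, the unequal-variance test). The count of 1 gene in the set became 2, with Cybb, under the replicate block (Cybb adjusted p = 0.0322), at a threshold of 0.1 and without the arrays with female signal, and it ran from 1 to 2 without 1 array each (2 without daDREAM replicate 4). The median difference of 0.01 became -0.09 without the arrays with female signal and -0.063 without those with the most Gh. Of the 34 uncalled genes, 16 changed sign under at least 1 setting, which their intervals around 0 allow.

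The 3 pathway genes past the test became 7 under the replicate block, 6 with the probe set of largest SD, 1 without the arrays with the most Gh, 1 among genes over 6 on 4 arrays, and 0 with the unequal-variance test or among genes above the median level. They ran from 1 to 5 without 1 array each, at 1 without daDREAM replicate 1, 2 or 3 and 5 without daDREAM replicate 4. The 364 genes past the test became 672 under the replicate block, 697 with the probe set of largest SD, 49 with the unequal-variance test, 215 above the median level, and 213, 98 and 171 without the arrays with female, Gh and muscle signal. Without 1 array each they ran from 229 to 349, with 229 and 236 without daDREAM replicates 2 and 3. The replicate numbers are not shown to pair the samples: deviations of same-numbered arrays correlated at 0.21, 0.01, 0.33 and 0.36, and 3 of 4 control arrays were best matched by their own number, a hint from the data only. Apart from Cybb, the block changed no call among the 35 genes.

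The shifts of Ly86 against Cd180 (dim, so Ly86 alone), Tlr4, Tlr2, Tlr7 and Cd14 kept their direction. Without the arrays with female signal they were -1.74, -1.50, -1.68, -1.62 and -1.35, and without those with the most Gh -1.65, -1.44, -1.68, -1.39 and -1.34, where 0.1 is the smallest p the design allows. Without the arrays with muscle signal they were -1.74, -1.54, -1.61, -1.46 and -1.31, with 0.0667 as the smallest. Dim signal limits Cd180, Itgam, Ly96 and Gpr34.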
